A study of Mus musculus with 12 samples.

Results

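The 36 genes described here encode the enzymes and transporters of glycolysis, lactate handling and the pentose phosphate pathway, 3 enzymes of gluconeogenesis, and 5 genes of the hypoxia response. They were picked by name for their function, with earlier results of these data known, and all 36 were found among the 16969 gene symbols of the table. Expression was measured by RNA-seq in GFP(+) cells sorted by FACS from the livers of adult (6-week-old) mice of the genotype Prom1CreERT2-nLacZ/+;Rosa26Lsl-GFP/+. The labels give the strain as C57BL/6, and per the study the Prom1 line was kept on C57BL/6N and the Rosa26 line on C57BL/6J. In these mice tamoxifen, given 7 days before surgery to every animal, switches on GFP for good in cells that use the *Prom1* promoter, so that GFP marks them and their progeny. The 3 groups were mice of D0, which the labels call sham and the study describes as taken before ligation, and mice collected 3 or 14 days after bile duct ligation (D3 and D14, together the BDL groups), a surgical model of cholestatic injury. Cells came from the nonparenchymal fraction after red cell lysis, dead cells were excluded with propidium iodide, and animals of both sexes were used in unequal proportions.

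Glycolysis splits glucose into pyruvate in the cytosol, and lactate dehydrogenase turns pyruvate into lactate when it is not passed to the mitochondria. The pentose phosphate pathway branches off at glucose-6-phosphate and yields NADPH and ribose. Gluconeogenesis runs the opposite way, from pyruvate to free glucose, and in the liver it is known as a task of hepatocytes. HIF1A, stabilised at low oxygen, is known to raise the transcription of many glycolytic genes, and activated macrophages are known for strong glycolysis.

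The labels name 3 libraries of D0, 3 of D3 and 6 of D14. The table gives group means of normalized counts, which fit 3, 3 and 4 libraries, so 10 of 12 libraries stand behind it. No value per library was analysed here, apart from the count of the highest library of each gene, which is not named, and depth per library is unknown. The 10 most abundant genes held 32.3% of the summed signal at D0, 20% at D3 and 21.1% at D14. A gene was counted as higher or lower where the ratio of the group means passed a fold of 1.5, among the 12889 genes with a summed normalized count of 10 or more. Of the 36 genes, 35 passed this filter, and *Egln3* did not. A within-group spread was worked out for each gene from the gap between its group means and its geometric mean over all libraries, taking the spread as equal in the 3 groups on a log scale. The standard error (SE) of each log2 ratio below comes from it. The study reports D14 replicates as more variable than those of D0, which an equal spread leaves out, so SEs at D14 may be too small. A ratio beyond 2 SE is a description and not a test, since 2 SE from so few libraries is less than a 95% interval. An exact permutation test could not have gone below a two-sided p of 0.1 with 3 against 3 libraries, or 0.0571 with 3 against 4. For some genes the group means, the highest library and the geometric mean together leave no arrangement in which the groups overlap, and these are given as groups that cannot overlap. For the others overlap is undetermined.

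The sorted cells are labelled as hepatic progenitor cells and their progeny, and the markers of that kind were low. By FACS the study found PROM1 on most GFP(+) cells before ligation and on a minority of them at D14. By staining it found GFP in bile ducts. From its RNA-seq it reported lower *Prom1* after ligation, with *Krt19* and *Sctr* unchanged. The sums below are of different genes and do not take gene length into account. The 9 cholangiocyte and progenitor markers, *Prom1*, *Krt19*, *Epcam* and *Sox9* among them, summed to 66.1 normalized counts at D0, 28.0 at D3 and 37.8 at D14. The 6 macrophage markers summed to 4700, 8690 and 13800 (of the last, *Lyz2* made up 11200), the 5 Kupffer cell markers to 9210, 20900 and 1280, and the 5 markers of monocyte-derived macrophages to 73.6, 143 and 1640. The 10 hepatocyte markers summed to 3060, 893 and 400 with none at the floor of the table. In bulk RNA fewer cells of a type and less RNA per cell cannot be told apart.

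At D3, 17 of the 35 genes (48.6%) were higher than at D0, against 19.2% of all genes, and 5 (14.3%) were lower, against 29.2%. With the further demand of a ratio beyond 2 SE, 13 were higher (background 11.4%) and 5 lower (background 15.0%). At D14, 15 genes were higher than at D0 (background 21.2%) and 6 lower (background 28.8%). Beyond 2 SE these were 14 (background 13.2%) and 5 (background 16.8%). The median log2 ratio of the 35 genes was 0.24 at D3 and 0.47 at D14, where the medians of all genes were -0.02 and -0.04. Both comparisons use the same D0 libraries. The 35 genes are more abundant than most, and among the 7291 genes with a mean of at least 10 the background of higher genes was 22.9% at D3, where 16 of 29 members were higher, and 23.4% at D14, where 14 of 29 were. Among the same genes the background of lower genes was 15.0% at D3 and 17.4% at D14, with 3 of 29 members lower each time. Under quantile normalization 12 of 35 members were higher at D3, against 26.2% of all genes, so the distance to the background was smaller there.

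**Figure D1:**
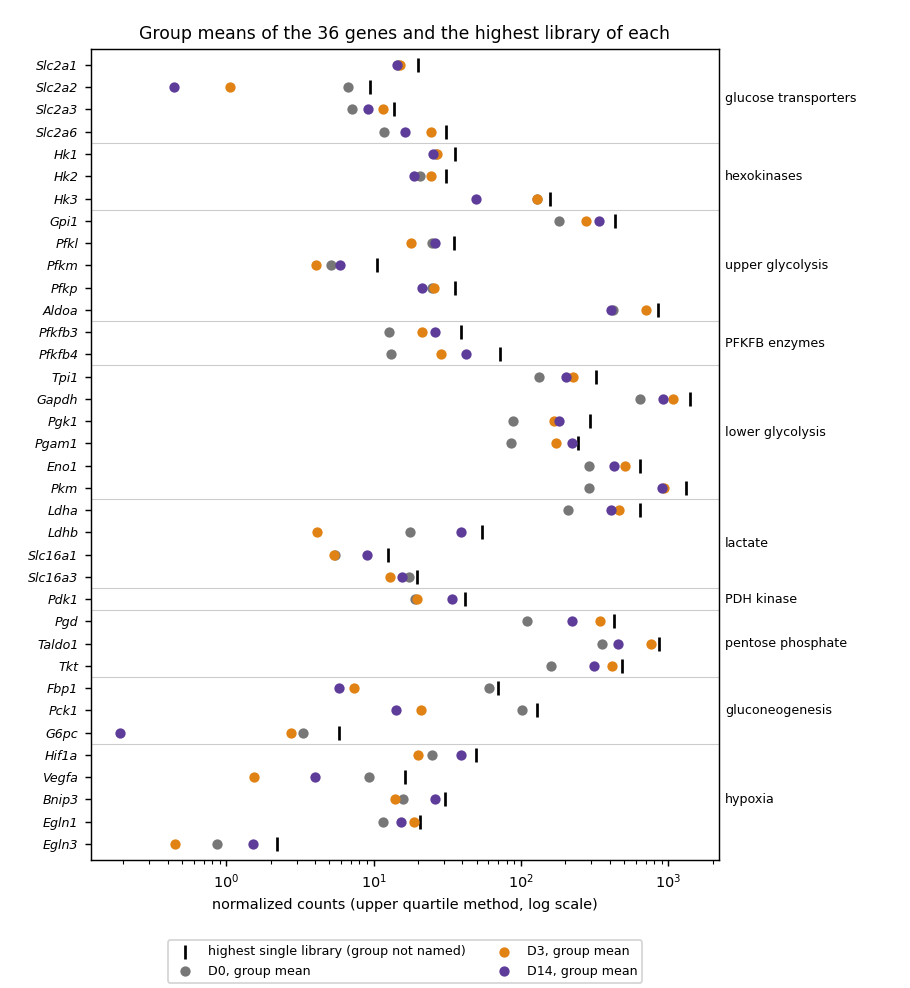
Group means of the 36 genes in normalized counts on a log scale, with D0 in grey, D3 in orange, D14 in purple and the highest single library as a black bar. The points of D3 and D14 lie to the right of D0 for the lower glycolysis and pentose phosphate genes and to the left for *Slc2a2*, *Fbp1*, *Pck1* and *G6pc*.

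Groups that cannot overlap were found for 8 of the 35 genes at D3 against D0 (background 6.15%), *Pfkfb4*, *Pkm*, *Pgd* and *Tkt* on the higher side and *Slc2a2*, *Ldhb*, *Fbp1* and *Pck1* on the lower. At D14 against D0 they were found for 7 (background 7.11%), *Pfkfb4*, *Pgam1*, *Pkm* and *Pgd* higher and *Slc2a2*, *Fbp1* and *Pck1* lower. Of these, *Slc2a2* passed the filter only through its counts at D0. From the group means and the highest library alone, without the geometric mean, this could be shown for *Fbp1* in each comparison, with backgrounds of 1.64% and 1.42%.

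The enzymes of lower glycolysis, which turn triose phosphates into pyruvate, were all above D0 in their group means at D3, and 5 of 6 were beyond 2 SE. *Pkm*, the pyruvate kinase that makes the last step, stood out with means of 287 normalized counts at D0, 932 at D3 and 912 at D14. Its highest library of the 10 had 1310. Its log2 ratio to D0 was 1.70 ± 0.32 (SE) at D3 and 1.67 ± 0.30 at D14, and neither BDL group can overlap D0. The 2 BDL groups differed by 0.03 on the log2 scale, less than the SE of 0.30.

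*Pgam1*, the phosphoglycerate mutase, had means of 86.1, 172 and 220 normalized counts from D0 to D14. Its log2 ratios to D0 were 1.00 ± 0.29 and 1.35 ± 0.27, and at D14 the groups cannot overlap. *Pgk1*, which makes the first ATP of the pathway, had means of 87.9, 167 and 181, with ratios of 0.93 ± 0.35 and 1.04 ± 0.32. For these genes the higher level at D3 was still there at D14.

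*Gapdh*, which oxidises glyceraldehyde-3-phosphate, had means of 637, 1080 and 916 normalized counts. *Eno1*, the enolase, had 291, 506 and 429. *Tpi1*, which interconverts the triose phosphates, had 133, 224 and 201. Their log2 ratios to D0 were 0.75 to 0.80 at D3 with SEs of 0.36 to 0.38, and 0.52 to 0.60 at D14, within 2 SE of 0. *Gapdh*, often taken as a constant reference gene, thus had means 1.70-fold apart between D0 and D3. Under quantile normalization the ratios of *Gapdh*, *Eno1* and *Tpi1* at D3 were 0.38, 0.34 and 0.42, inside the fold of 1.5.

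Per kilobase of exon, *Gapdh* had the highest level of the 6 lower glycolysis genes in each group, at 154, 261 and 222 normalized counts per kb. *Pkm* was next at 57.4, 186 and 182. The mouse genome holds many processed copies of such genes. The share of 50-base stretches of the transcripts that also occur in other annotated genes was 53.9% for *Pgk1*, 36.2% for *Pgam1*, 26.0% for *Eno1*, 25.8% for *Pkm* and 25.1% for *Gapdh*, so their counts depend on how shared reads were assigned and are uncertain to that extent.

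In upper glycolysis *Gpi1* and *Aldoa* were the abundant members and behaved differently over time. *Gpi1*, which turns glucose-6-phosphate into fructose-6-phosphate, had means of 182, 277 and 339 normalized counts. Its log2 ratio to D0 was 0.61 ± 0.24 at D3 and 0.90 ± 0.22 at D14. *Aldoa*, the aldolase that cuts fructose-1,6-bisphosphate, had 420, 710 and 405. It was higher at D3 by 0.76 ± 0.23, its ratio at D14 was -0.05 ± 0.22, and D14 was below D3 (-0.81 ± 0.22). Under quantile normalization the D3 ratios of *Gpi1* and *Aldoa* were 0.17 and 0.35.

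The 3 phosphofructokinases, which commit fructose-6-phosphate to glycolysis, stayed within the fold of 1.5 at both times. *Pfkl* had means of 24.9, 18 and 26.1 normalized counts, *Pfkm* 5.12, 4.07 and 5.94, and *Pfkp* 25, 25.6 and 21.4. The spread of *Pfkm* was wide, so that its ratio of -0.33 ± 0.91 at D3 could hide a change either way. Summed per kb the 3 genes had 7.13, 5.83 and 7.29, with *Pfkl* at 52.3%, 46.3% and 53.7% of the sum.

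The bifunctional PFKFB enzymes make and remove fructose-2,6-bisphosphate, the strongest known activator of phosphofructokinase, and both were higher than D0 in each BDL group. *Pfkfb4* had means of 13, 28.4 and 42.2 normalized counts, with a highest library of 71.6. Its log2 ratios to D0 were 1.13 ± 0.38 and 1.70 ± 0.35, and neither BDL group can overlap D0. *Pfkfb3* had 12.6, 21.4 and 26.1, with ratios of 0.76 ± 0.47, within 2 SE, and 1.05 ± 0.44. The sum of both genes per kb was 4.33 at D0, 8.66 at D3 and 12.1 at D14, of which *Pfkfb4* made up 61.5%, 67.3% and 71.5%.

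Glucose entry showed opposite patterns between transporters. *Slc2a2* (GLUT2), the low-affinity transporter known from hepatocytes and beta cells, had means of 6.66, 1.06 and 0.443 normalized counts, and the highest library, 9.49, was of D0. Its log2 ratios to D0 were -2.65 ± 0.53 and -3.91 ± 0.49, and neither BDL group can overlap D0. It passed the filter only through its counts at D0, so a lower call was favoured by the filter. Its spread of 0.65 on the log2 scale was below the 1.2 of genes of like level, so these SEs may be too small. *Slc2a6* (GLUT6), known from spleen and leukocytes, had 11.8, 24.4 and 16.4, with ratios of 1.05 ± 0.45 and 0.47 ± 0.42. *Slc2a3* (GLUT3) had 7.08, 11.6 and 9.14, past the fold at D3 (0.71 ± 0.41) and within 2 SE at both times. *Slc2a1* (GLUT1), the widespread basal transporter, had 14.6, 15.0 and 14.3, with ratios of 0.04 ± 0.29 and -0.03 ± 0.27.

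Per kb the 4 transporters summed to 9.97, 13.7 and 10.5 normalized counts. *Slc2a6* made up 36.8% of this sum at D0, 55.6% at D3 and 48.5% at D14. *Slc2a1* made up 41.8%, 31.3% and 38.8%, and *Slc2a2* 11.6%, 1.35% and 0.731%.

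Among the hexokinases, which trap glucose as glucose-6-phosphate, *Hk3* dominated. *Hk3*, known from myeloid cells, had means of 129 at D0, 129 at D3 and 49.4 at D14. D14 was below D0 and below D3, each by 1.38 on the log2 scale with an SE of 0.41. *Hk1* had 26.5, 26.9 and 25.4 and *Hk2* 20.6, 24.4 and 18.9, all ratios within the fold. Per kb the 3 hexokinases summed to 41.6, 42.3 and 19.6, and the share of *Hk3* was 84.2%, 82.9% and 68.6%. The Kupffer cell markers were lower at D14 as well, 5 of 5 genes past the fold with a median log2 ratio of -2.30 to D0, while of the macrophage markers 1 of 6 was higher and 0 were lower. Their part in the level of *Hk3* was not tested.

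**Figure D2:**
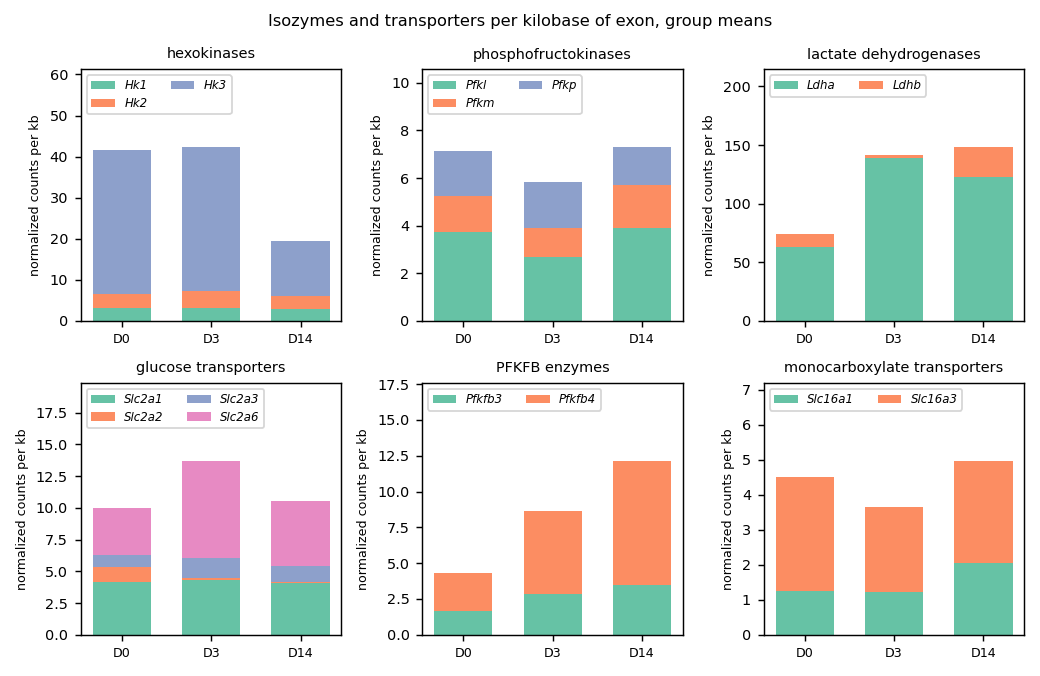
Stacked bars of group means per kilobase of merged exons for 6 families of isozymes or transporters at D0, D3 and D14, each colour 1 gene. *Hk3* fills most of the hexokinase bar, the orange *Ldhb* part nearly vanishes at D3, and the PFKFB bar is taller in each later group.

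The pair of lactate dehydrogenase subunits moved apart at D3. *Ldha*, the subunit of muscle-type enzyme that favours lactate formation, had means of 209, 459 and 406 normalized counts, with log2 ratios to D0 of 1.13 ± 0.34 and 0.96 ± 0.32. *Ldhb*, the heart-type subunit, had 17.7, 4.09 and 39.2, and its highest library, 54.0, was of D14. It was lower than D0 at D3 (-2.11 ± 0.42), higher than D0 at D14 (1.15 ± 0.39), and 9.58-fold higher at D14 than at D3 (3.26 ± 0.39). The D3 group can overlap neither D0 nor D14. Per kb *Ldhb* made up 15.1% of the sum of both subunits at D0, 1.84% at D3 and 16.9% at D14. Of its 50-base stretches, 21.0% also occur in *Gm5514*.

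The lactate carriers differed less. *Slc16a1* (MCT1) had means of 5.47, 5.35 and 9.03 normalized counts. It was higher at D14 than at D0 (0.72 ± 0.34) and than at D3 (0.76 ± 0.34), though not beyond 2 SE with the larger of its own spread and that of genes of like level. *Slc16a3* (MCT4), the carrier known from glycolytic cells, had 17.3, 12.9 and 15.5 and stayed within the fold. *Pdk1*, a kinase that shuts off pyruvate dehydrogenase, had 19.2, 19.8 and 34.1. Its ratio was 0.04 ± 0.28 at D3 and 0.83 ± 0.26 at D14.

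The pentose phosphate enzymes had the largest differences of the roles that were higher at D3, with a median log2 ratio of 1.37 for 3 of 3 genes. *Pgd*, the 6-phosphogluconate dehydrogenase that makes NADPH, had means of 109, 345 and 223 normalized counts. Its log2 ratios to D0 were 1.66 ± 0.20 and 1.03 ± 0.19, and neither BDL group can overlap D0. *Tkt*, the transketolase of the nonoxidative branch, had 160, 413 and 314, with ratios of 1.37 ± 0.28, where the groups cannot overlap, and 0.97 ± 0.26. *Taldo1*, the transaldolase, had 355, 762 and 458, with ratios of 1.10 ± 0.34 and 0.37 ± 0.32. *Pgd* and *Taldo1* were lower at D14 than at D3, with log2 ratios of -0.63 ± 0.19 and -0.73 ± 0.32. Scaled to equal sums these ratios were -0.43 and -0.54, inside the fold. Per kb *Taldo1* had the highest level of all 36 genes in D0 and D3, at 164 and 351 normalized counts.

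Of the 3 enzymes of gluconeogenesis, 2 were lower than D0 at D3 and 3 at D14, with median log2 ratios of -2.28 and -3.38. *Fbp1*, which removes a phosphate from fructose-1,6-bisphosphate, had means of 60.2, 7.39 and 5.77 normalized counts. The highest library, 70.0, was of D0, and no D0 library can be below 37.4, while no library of D3 can be above 22.4 and none of D14 above 23.3. Its log2 ratios to D0 were -3.03 ± 0.50 and -3.38 ± 0.46. *Pck1*, the cytosolic phosphoenolpyruvate carboxykinase, had 101, 20.8 and 14.2, with ratios of -2.28 ± 0.46 and -2.83 ± 0.43, and neither BDL group can overlap D0.

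*G6pc*, the glucose-6-phosphatase that releases free glucose, was low in each group, with means of 3.33, 2.75 and 0.188. The mean at D14 was at the floor, set at 4 times the lowest mean that the table gives for the group, 0.244 here. The D0 mean was 13.6-fold above that floor, which is not a lower limit, since the D0 mean is itself low and uncertain. The log2 ratio of the means was -0.28 ± 1.09 at D3 and -4.15 ± 1.02 at D14, where overlap with D0 is undetermined.

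The hepatocyte markers were lower in both BDL groups, as were *Fbp1*, *Pck1* and *Slc2a2*, while *G6pc* was within the fold at D3. Other marker lists were lower at both times too. Their median log2 ratios were -1.97 and -3.82 for T and NK cells, -2.64 and -4.74 for B cells, and -4.75 and -3.78 for erythroid cells. The medians of the mesenchymal, neutrophil and cholangiocyte lists were also below 0 at both times. Of the 10 hepatocyte markers, 8 were lower at D3 and 10 at D14, with median log2 ratios of -1.87 and -2.64, and their sum was 3060, 893 and 400. None of the 10 was at the floor in any group. *Alb*, the most abundant of them, had 2440, 642 and 271. The part of hepatocyte RNA in the levels of *Fbp1*, *Pck1*, *G6pc* and *Slc2a2* was not tested.

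**Figure D3:**
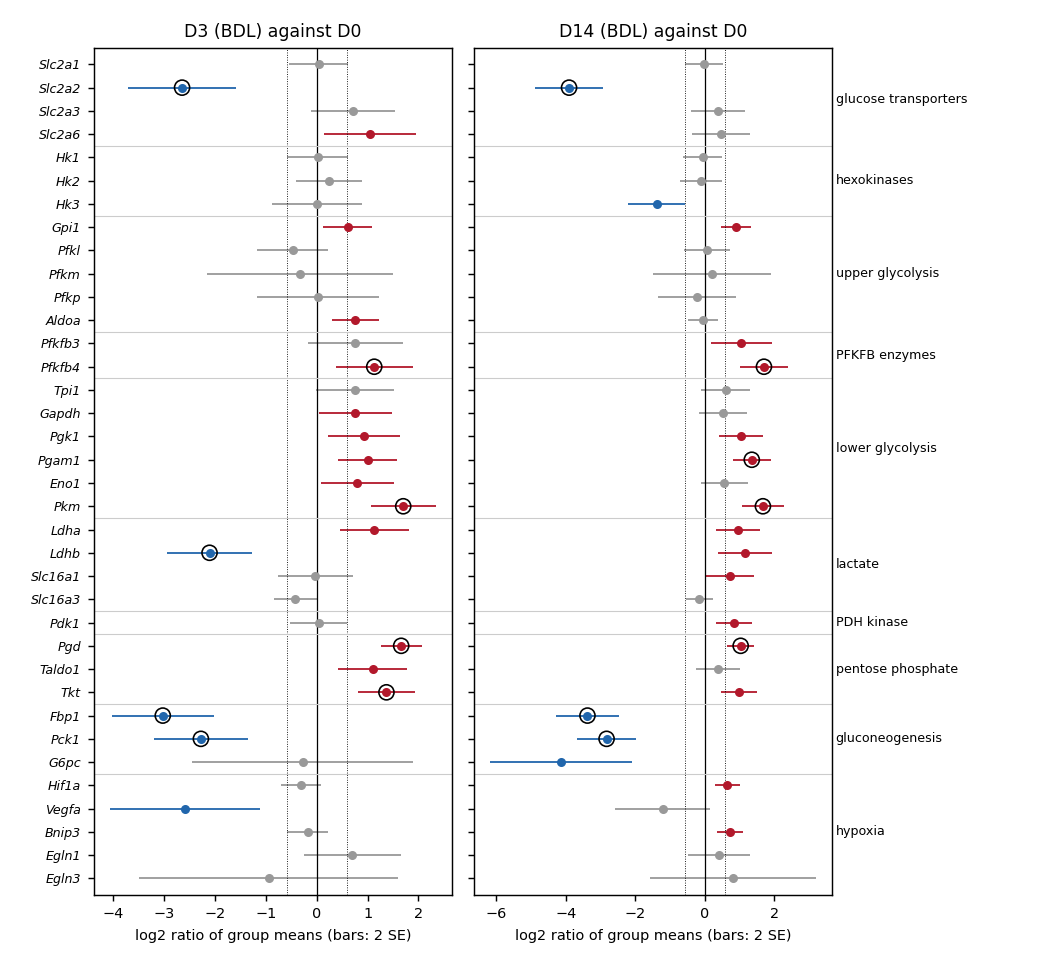
Log2 ratios of group means to D0 for D3 (left) and D14 (right), with bars of 2 SE, dotted lines at a fold of 1.5, red and blue for genes past the fold and beyond 2 SE, and rings for groups that cannot overlap. Rings sit on *Pkm*, *Pgd*, *Pfkfb4*, *Slc2a2*, *Fbp1* and *Pck1* in both panels; the *G6pc* point at D14 rests on a mean at the floor, and *Egln3* did not pass the filter.

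Against D0 the hypoxia genes did not share a direction. From D3 to D14, 3 of the 4 kept were higher (background 21.2%) and 0 lower (background 19.7%), with a median log2 ratio of 0.93. Of the 3, *Vegfa* was within 2 SE (1.36 ± 0.69). *Hif1a*, the oxygen-regulated subunit of the factor, had means of 24.9, 20.1 and 39.1 normalized counts. Its log2 ratio to D0 was -0.31 ± 0.20 at D3 and 0.65 ± 0.18 at D14, and D14 was above D3 by 0.96 ± 0.18 with groups that cannot overlap. *Bnip3*, a mitophagy receptor, had 15.9, 14.0 and 26.2, with ratios of -0.18 ± 0.20 and 0.72 ± 0.19. Of its 50-base stretches 47.2% also occur in other annotated genes.

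*Vegfa*, the endothelial growth factor, had means of 9.32, 1.55 and 3.99, and its highest library, 16.4, was of D0. It was lower at D3 (-2.59 ± 0.74, and -1.90 without that library). The D14 ratio of -1.22 ± 0.69 was within 2 SE, and in the same way it was -0.53, inside the fold. *Egln1*, the prolyl hydroxylase that marks HIF1A for breakdown, had 11.6, 18.9 and 15.4, with ratios of 0.70 ± 0.48 and 0.41 ± 0.45. *Egln3*, its relative, had 0.861, 0.447 and 1.51 and was too low to compare.

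Between D3 and D14, 6 of the 35 genes were higher at the later time (background 21.2%) and 6 lower (background 19.7%), with a median log2 ratio of -0.16. Beyond 2 SE, 5 were higher (background 11.3%), namely *Ldhb*, *Slc16a1*, *Pdk1*, *Hif1a* and *Bnip3*, and 6 lower (background 10.6%), namely *Slc2a2*, *Hk3*, *Aldoa*, *Pgd*, *Taldo1* and *G6pc*. Past the fold this was 17.1% of the genes in each direction, below the share of all genes. With group means scaled to equal sums, which moved the median of all genes by 0.20, 9 were higher (28.2% of all genes under this scaling) and 4 lower (14.0%). With a pseudocount of 1 the ratio of *Slc2a2* between these times was -0.51, inside the fold. Groups that cannot overlap were found for *Ldhb* and *Hif1a* (background 4.03%), and for 0 genes without the geometric mean (background 0.466%). The 6 lower glycolysis genes had a median log2 ratio of -0.09 between these times, with 0 past the fold.

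**Figure D4:**
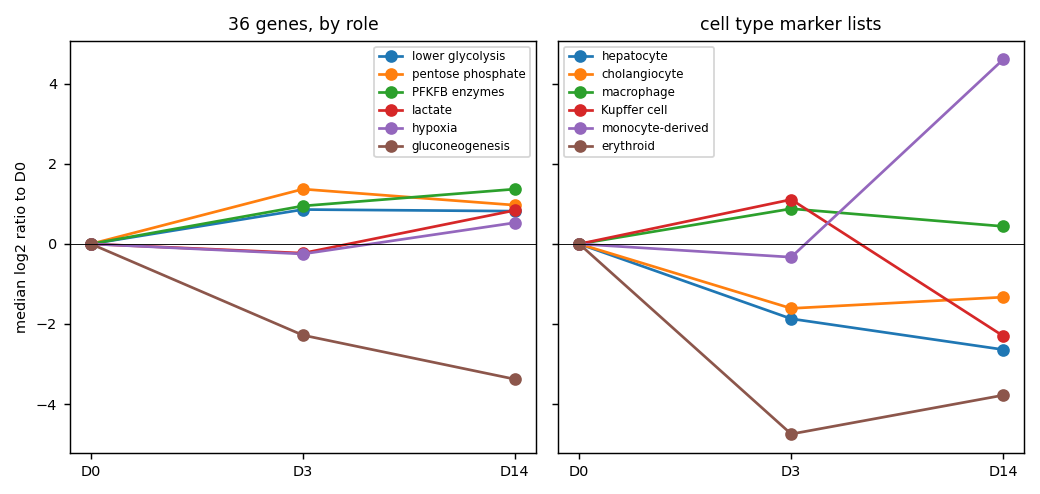
Median log2 ratio to D0 of the genes of 6 roles (left) and of 6 lists of cell type markers (right) at D3 and D14. Gluconeogenesis lies below D0 at -2.28 and -3.38. The hepatocyte (-1.87 and -2.64), cholangiocyte (-1.61 and -1.33) and erythroid markers (-4.75 and -3.78) lie below it as well. Lower glycolysis lies above D0 at 0.86 and 0.82, and the macrophage markers at 0.88 and 0.44. Glucose transporters, hexokinases, upper glycolysis and *Pdk1* are not drawn, nor are the mesenchymal, endothelial, neutrophil, T and NK cell and B cell lists.

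The macrophage markers were higher at D3 for 5 of 6 genes, with a median log2 ratio of 0.88, beside the 0.86 of lower glycolysis and the 1.37 of the pentose phosphate genes. At D14 the medians were 0.44, 0.82 and 0.97. The Kupffer cell markers were higher for 4 of 5 genes at D3. Of the markers of monocyte-derived macrophages 4 of 5 were higher at D14, with a median of 4.61. The other, *Ly6c2*, was lower, with 21.9 at D0 and 6.69 at D14. The part of a shift among macrophages in the glycolytic genes was not tested. None of the macrophage, Kupffer cell or monocyte-derived markers was at the floor in any group. The other markers summed, from D0 to D14, to 1400, 24.4 and 132 for mesenchymal cells, 882, 561 and 863 for endothelial cells, 485, 222 and 127 for neutrophils, 70.7, 20.2 and 4.43 for T and NK cells, 180, 49.1 and 21.3 for B cells and 954, 99.9 and 69.3 for erythroid cells. Among the markers at the floor were *Sctr* at D3, and *Lrat* and *Ly6g* at D14.

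Other genes of the same pathways were counted in the same way, in small lists, here and in the following paragraphs. Among all genes 19.2% were higher and 29.2% lower at D3, and 21.2% higher and 28.8% lower at D14. Of 15 other glycolysis genes kept, 1 was higher and 7 lower at D3, and 2 higher and 9 lower at D14. Among the abundant ones was *Bpgm*, the 2,3-bisphosphoglycerate mutase of red cells, with means of 281, 23.4 and 20.2 normalized counts beside erythroid markers with sums of 954, 99.9 and 69.3. *Slc2a9*, a urate carrier, was higher at D14 (7.12 against 14.4).

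Around the entry of pyruvate into mitochondria, 5 of 12 genes were higher and 1 lower at D3, and 4 higher and 2 lower at D14. *Dlat*, a subunit of pyruvate dehydrogenase, had means of 9.42, 18.9 and 16.9. Of the kinases that inhibit the complex, *Pdk3* had 4.54, 9.21 and 15.3 and *Pdk4*, known from fasting, 10.8, 3.42 and 5.08. At D14 the log2 ratio to D0 was 1.75 ± 0.33 for *Pdk3*, beside 0.83 for *Pdk1*, and -1.09 ± 0.69 for *Pdk4*.

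Of 6 other pentose phosphate genes, 1 was higher and 2 lower at D3, and 1 higher and 1 lower at D14. *G6pdx*, the enzyme that opens the pathway, had means of 94.3, 189 and 105, with a log2 ratio of 1.00 ± 0.56 at D3, within 2 SE. *Rpe* had 13.9, 6.57 and 11.4. Of 8 other gluconeogenesis genes, 2 were higher and 3 lower at D3, and 1 higher and 4 lower at D14. *Pcx*, the pyruvate carboxylase that feeds *Pck1*, had 12.5, 4.95 and 2.90, *Gpt* 10.2, 7.17 and 3.24, and *Foxo1* 10.9, 5.38 and 6.94. *G6pc3*, the glucose-6-phosphatase found in most cells, went the other way from *G6pc*, with 9.36, 20.6 and 11.6, and *Got1*, an aspartate transaminase, with 21.7, 53.2 and 35.2.

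Of 8 glycogen genes, 2 were higher and 2 lower at D3, and 4 higher and 2 lower at D14. *Gbe1*, the branching enzyme, had 6.78, 15.7 and 13.3, and *Gyg*, the primer of glycogen, 17.8, 22.5 and 62.1. Of 18 other hypoxia genes, 7 were higher and 4 lower at D3, and 6 higher and 5 lower at D14. *Ddit4*, a stress-induced inhibitor of mTORC1, had means of 32.0, 204 and 107, while *Epas1*, which encodes HIF2A, had 58.1, 6.37 and 35.0 and *Ndrg1* 32.2, 8.26 and 55.8. *P4ha2* had 11.0, 7.2 and 2.1 and *Adm*, which encodes adrenomedullin, 15.6, 25.9 and 4.53. Of 4 regulators kept, *Arrdc4*, a target of glucose-sensing transcription factors, had 12.6, 41.3 and 37.3, and it was the 1 that was higher at each time. *Myc*, with 37.3, 32.2 and 18.8 and a log2 ratio of -0.99 ± 0.13 at D14, was the 1 that was lower there, and at D3 0 were lower. *Myc* falls outside the naming rule and was named after its values were seen.

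The core of the hypoxia response element, ACGTG or GCGTG on either strand, was looked for in the 250 bases before the RefSeq starts of 35 of the 36 genes, all but *Slc2a3*. It was found in a window of 29 of 35 genes (82.9%). A gene counted where any of its windows held the core, and genes with more windows have more room for a match. *Pfkm* had 4 windows and *Aldoa* and *Eno1* 3 each, and the number of windows was not matched in the shares that follow. The share was 59.7% for the 9782 genes kept that have such a window. It was 41.5% for all genes with a window, and 38.6% of single windows held it. For *Aldoa*, *Hk1*, *Pkm* and *Vegfa* the match was not in the window nearest the start. The core overlaps the E-box CACGTG, which counts on both strands, and the windows of the members held slightly more G and C (median 62.8%) than those of the genes kept (60.8%). TGACNNNGC, the core of the antioxidant response element, was in 5 of 35 (14.3%), against 13.9% of the genes kept. It was in 11.5% of all genes with a window and 10.2% of single windows. The windows below are shown for genes that were higher in both BDL groups (*Pgk1* and *Pgam1*), higher at D14 (*Pdk1*), lower and then higher (*Ldhb*), and lower at both times (*Slc2a2* and *Fbp1*). They are from RefSeq on GRCm38.p6, read 5′ to 3′ toward the start, with the bases of either core in capitals.
Pgk1, chrX:106186850-106187099, plus strand: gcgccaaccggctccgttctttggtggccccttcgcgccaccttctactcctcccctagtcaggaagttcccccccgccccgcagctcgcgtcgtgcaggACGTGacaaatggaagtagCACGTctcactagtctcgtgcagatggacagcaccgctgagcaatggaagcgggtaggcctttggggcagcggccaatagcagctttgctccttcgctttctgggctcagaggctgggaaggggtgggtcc
Pgam1, chr19:41911621-41911870, plus strand: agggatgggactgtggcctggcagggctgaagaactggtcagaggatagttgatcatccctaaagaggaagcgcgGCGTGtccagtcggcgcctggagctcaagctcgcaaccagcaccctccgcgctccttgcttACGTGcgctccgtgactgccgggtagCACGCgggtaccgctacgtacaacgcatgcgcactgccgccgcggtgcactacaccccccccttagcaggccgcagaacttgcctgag
Pdk1, chr2:71872974-71873223, plus strand: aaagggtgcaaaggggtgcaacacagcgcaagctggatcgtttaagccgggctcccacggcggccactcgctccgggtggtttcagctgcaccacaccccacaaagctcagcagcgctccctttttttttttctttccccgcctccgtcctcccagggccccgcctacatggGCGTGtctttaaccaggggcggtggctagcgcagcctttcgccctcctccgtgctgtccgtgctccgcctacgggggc
Ldhb, chr6:142507958-142508207, minus strand: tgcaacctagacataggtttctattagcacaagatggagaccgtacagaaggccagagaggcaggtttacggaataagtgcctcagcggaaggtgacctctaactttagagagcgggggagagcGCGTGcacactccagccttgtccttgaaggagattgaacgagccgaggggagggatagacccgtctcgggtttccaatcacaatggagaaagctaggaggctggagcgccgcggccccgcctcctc
Slc2a2, chr3:28697653-28697902, plus strand: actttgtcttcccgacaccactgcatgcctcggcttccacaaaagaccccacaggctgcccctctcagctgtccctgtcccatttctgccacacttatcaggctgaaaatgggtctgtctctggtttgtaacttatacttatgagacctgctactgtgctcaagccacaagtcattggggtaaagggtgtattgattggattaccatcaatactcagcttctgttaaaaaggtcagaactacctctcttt
Fbp1, chr13:62888283-62888532, minus strand: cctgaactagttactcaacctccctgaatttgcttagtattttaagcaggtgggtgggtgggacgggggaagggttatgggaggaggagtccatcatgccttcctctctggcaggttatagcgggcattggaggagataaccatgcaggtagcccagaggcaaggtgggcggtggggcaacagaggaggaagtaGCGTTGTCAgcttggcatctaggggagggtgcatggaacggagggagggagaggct

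In these windows *Pgam1* held 3 hypoxia cores, 175, 114 and 88 bases before the start, and *Pgk1* held 2, at 150 and 131. *Pdk1* had 1 at 78 and *Ldhb* 1 at 126. *Slc2a2* and *Fbp1* had 0, and the capitals of *Fbp1* are the antioxidant core 56 bases before the start. Windows nearest the start of other genes, not shown, differed within each direction. Higher in both BDL groups, *Pkm*, *Gpi1* and *Tpi1* had 0 hypoxia cores, *Ldha* had 5, and *Pfkfb3*, *Pfkfb4*, *Pgd* and *Tkt* had 1 each. Within the fold at both times, *Pfkp* had 3, *Slc2a1*, *Hk2*, *Pfkm* and *Slc16a3* 2 each, *Pfkl* 1 and *Hk1* 0. Lower at D14, *Hk3* had 1, and *Pck1*, *G6pc* and *Vegfa* 0. A match shows only that the letters are there, and no binding was measured in these cells.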

How the data were processed

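GFP(+) cells of 3 groups were sequenced with TruSeq mRNA libraries on a NextSeq. Per the study's methods, reads were trimmed to a quality of 20 and a length of 25 bases, aligned and counted with STAR on mm10 with GENCODE M18 in Partek Flow, and normalized by the upper quartile method. The submitters' processing notes name STAR 2.6.1d and the study's methods an earlier version, so the version behind the values is not settled. The deposited values used here are the authors' signal: group means, arithmetic and geometric means over the libraries and the highest library, all in normalized counts. The authors' own comparisons (p-values, FDR, ratios, fold changes and their limits) were not used.

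Group sizes of 3, 3 and 4 were recovered from the identity between the group means and the overall mean, which held within 0.678% for every gene. The 2 other D14 libraries of the labels are thus outside the table, and they were not identified here. No test was run, since the table gives group means and the spread behind the SE is itself an estimate that takes the groups as equally variable. Ratios were taken without a pseudocount among genes with summed normalized counts of at least 10, and a fold of 1.5 counted as higher or lower. SEs use a spread with 7 degrees of freedom. The SE, its larger variant (200 genes nearest in mean) and the use of the geometric mean for overlap were chosen after seeing the data. The calculations were checked on simulated data with equal spread in the groups, so this check does not cover unequal spread. Levels per kilobase use merged exons of GENCODE M21. The alternatives were pseudocounts of 0.1 and 1, no filter, a mean of at least 10, a fold of 2, 3 other scalings, and leaving out the highest library. The 36 genes, the 7 pathway lists and the 11 marker lists were chosen with earlier results of these data known. All members are named, and of each pathway list at most 2 genes a direction with the largest ratio to D0 past a fold of 2 and a mean of at least 10 in a group. Some genes that this rule names are not reported here. *Alb*, *Lyz2*, single markers, *Pdk3* at D3 and *Gm5514* were named outside this rule, after their values were seen. Python 3.11.15, numpy 2.4.6, pandas 2.3.3 and matplotlib 3.10.9 were used. Libraries are from separate mice per the study.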

Additional observations from a re-analysis of the deposited data

How the results depend on the processing

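No member past the fold of 1.5 changed direction under any alternative run. With a fold of 2, 7 genes were higher at D3 (7.45% of all genes) and 7 at D14 (9.77%) against D0, and between the BDL groups 2 were higher (13.1%) and 3 lower (10.1%). With a mean of at least 10, 3 genes were lower than D0 at D3 and 3 at D14, since fewer genes were compared, and the median log2 ratio at D3 was 0.70. Groups that cannot overlap numbered 8, 7 and 2 with the geometric mean (D3 and D14 against D0, and D14 against D3), and 1, 1 and 0 without it. Sum scaling moved the median of all genes by 0.13, 0.33 and 0.20, and 21 members were then higher at D14 than at D0, against 35.5% of all genes. It also turned the median log2 ratio of the members between the BDL groups to 0.04. Quantile normalization left 12 higher at D3, against 26.2% of all genes, without *Gpi1*, *Aldoa*, *Tpi1*, *Gapdh* and *Eno1*. It also shrank the D3 log2 ratios of *Pkm*, *Pgd* and *Tkt* to 1.29, 1.28 and 0.95. The ratio of *Pgd* between the BDL groups was then -0.31, inside the fold. A pseudocount of 1 shrank the log2 ratios to D0 of *Slc2a2* to -1.89 at D3 and -2.41 at D14, and that of *G6pc* at D14 to -1.87. With the larger spread *Gpi1* at D3, *Slc16a1* at D14 and *Slc2a2* between the BDL groups (also inside the fold with a pseudocount of 1) were no longer beyond 2 SE. Depth per library is unknown, so counting error could not be given. Leaving out each replicate in turn was not run, since the values are group means, and the highest library of a gene was left out instead where it could be placed. No paired analysis was possible because the table holds group means and no replicate.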
